A study of Mus musculus with 4 samples.

Results

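Accessibility is described here at the promoters of the mouse kinesin and tubulin genes with their stathmins, dynein 1 subunits and kinesin light chains, 68 genes chosen by symbol, of which 61 had a site. Kinesins are motor proteins that walk along microtubules or take their ends apart, and tubulins are the subunits from which microtubules are built. In dividing cells some kinesins build the spindle, move chromosomes and organise the midzone from which the daughter cells separate, while others carry vesicles, mitochondria and ciliary components in cells that do not divide. Stathmins bind free tubulin dimers and promote microtubule disassembly, cytoplasmic dynein 1 walks towards microtubule minus ends, and kinesin light chains link conventional kinesin to its cargo. They were followed after loss of Ash2l, a core subunit of the complexes that methylate histone H3 at lysine 4.

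Accessible chromatin was mapped by ATAC-seq, which reads where a transposase can cut the DNA, in iMEF2, one line of immortalized mouse embryo fibroblasts. The line carries a floxed exon 4 of Ash2l, an inducible Cre-ER and an shRNA against p19Arf, so both groups share all of these. In the +HOT group Cre was switched on by 5 nM 4-hydroxytamoxifen for 7 days, and the -HOT group received ethanol for the same time. Each group had 2 libraries, technical replicates of 1 line, so p-values cover only the spread between such libraries, and a 2-against-2 exact permutation test could not go below a two-sided p of 0.333.

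By the rule, members were protein-coding genes of the GENCODE vM1 annotation named Kif plus a digit, Tuba, Tubb or Tubg plus a digit, Stmn1 to Stmn4, Dync1 or Klc plus a digit. A site is an ATAC interval centred within 3000 bp of the transcription start site (TSS) of such a gene. The rule named 68 genes, and the 61 with a site held 81 of the 119609 intervals of the series. No site was found for Kif27, Kif2b, Kif4-ps, Kif5a, Stmn4, Tubb1 or Tubb4. Near the window's edge, a Kif18a site at 2730 bp (log2 fold change -1.29) and a Dync1h1 site at 2753 bp (0.13) lay inside, and sites at 3010 bp from Kif17 (-0.51) and 3267 bp from Tubb5 (-0.36) lay outside. For each gene the site with the highest mean count was taken as its main site, and all 61 main sites passed the filter on low counts. Of these, 56 lay within 1000 bp of the start, and 9 also lay in the window of another gene, 5 of them nearer to that gene.

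Reads in intervals ranged from 21356440 to 37151163 per library, and each main site of a member held between 38 and 2193 reads. Libraries of one group differed by more than counting noise (chi-square per degree of freedom 2.38 within +HOT and 2.22 within -HOT). None of the 3 intervals in or beside Ash2l covered its exon 4, so the deletion could not be checked in these counts. Promoters of all 10 fibroblast markers listed had a site, of which 4 were lost and 0 gained. Of all protein-coding genes with a promoter site, 23.0% were lost and 4.76% gained. The summed levels of the fibroblast markers were 380 and 362 CPM (reads scaled to equal library size) in +HOT against 477 and 451 CPM in -HOT. Of the 5 blood markers Ptprc and Sfpi1 had no site, and the other 3 were all lost, with sums of 28.7 and 25.3 CPM in +HOT against 51.3 and 52.3 CPM in -HOT. All 4 muscle markers had a site, of which 2 were gained, with sums of 14.9 and 13.9 CPM in +HOT against 10.3 and 8.67 CPM in -HOT, and all 4 endothelial markers had one, of which 2 were lost. The part of such cells in the members' values was not tested.

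Promoters of genes used in mitosis are known for a common arrangement of motifs. In it a CCAAT box, bound by NF-Y, and a cell cycle genes homology region (CHR), bound by the MuvB complexes that switch mitotic genes off in resting cells and on in dividing cells, stand close to the start. The promoter windows of 5 mitotic kinesins are shown for this arrangement, each from 250 bases before to 50 bases after the RefSeq start (GRCm38.p6), with capitals marking CCAAT and TTTGAA or TTCGAA on either strand (ATTGG and TTCAAA are the reverse complements). They are Kif18b at chr11:102925075-102925374, minus strand, Kif23 at chr9:61946750-61947049, minus strand, Kif4 at chrX:100625815-100626114, plus strand, Kif22 at chr7:127042371-127042670, minus strand, and Kif11 at chr19:37376132-37376431, plus strand.
Kif18b: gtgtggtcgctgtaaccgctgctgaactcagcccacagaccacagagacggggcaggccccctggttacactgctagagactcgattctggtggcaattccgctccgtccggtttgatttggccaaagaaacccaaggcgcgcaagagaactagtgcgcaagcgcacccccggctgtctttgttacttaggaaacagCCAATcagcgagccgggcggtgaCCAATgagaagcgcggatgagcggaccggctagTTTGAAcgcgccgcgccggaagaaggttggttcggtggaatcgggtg
Kif23: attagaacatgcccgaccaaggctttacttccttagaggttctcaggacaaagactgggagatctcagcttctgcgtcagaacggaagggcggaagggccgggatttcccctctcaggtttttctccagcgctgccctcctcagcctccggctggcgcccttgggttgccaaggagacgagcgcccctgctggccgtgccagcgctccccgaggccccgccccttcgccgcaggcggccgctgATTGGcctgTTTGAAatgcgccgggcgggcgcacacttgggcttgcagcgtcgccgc
Kif4: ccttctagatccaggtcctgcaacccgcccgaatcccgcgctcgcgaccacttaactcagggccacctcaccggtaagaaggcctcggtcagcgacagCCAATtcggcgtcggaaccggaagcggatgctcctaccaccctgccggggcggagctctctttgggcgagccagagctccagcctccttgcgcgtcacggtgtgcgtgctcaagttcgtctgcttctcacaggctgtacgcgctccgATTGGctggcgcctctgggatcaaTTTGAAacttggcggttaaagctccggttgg
Kif22: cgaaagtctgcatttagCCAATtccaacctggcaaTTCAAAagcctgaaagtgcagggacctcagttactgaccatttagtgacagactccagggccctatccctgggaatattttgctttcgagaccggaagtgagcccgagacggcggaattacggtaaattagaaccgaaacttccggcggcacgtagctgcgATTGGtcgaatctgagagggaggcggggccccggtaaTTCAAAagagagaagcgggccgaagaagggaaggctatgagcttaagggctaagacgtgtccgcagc
Kif11: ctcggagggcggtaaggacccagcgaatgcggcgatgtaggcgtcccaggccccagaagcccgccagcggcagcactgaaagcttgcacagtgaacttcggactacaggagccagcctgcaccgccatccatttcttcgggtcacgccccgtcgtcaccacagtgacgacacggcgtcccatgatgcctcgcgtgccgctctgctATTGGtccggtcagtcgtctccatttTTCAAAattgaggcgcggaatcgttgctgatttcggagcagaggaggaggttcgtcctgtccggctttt
For contrast, the windows of Tuba1c at chr15:99029641-99029940, plus strand, and Kif5c at chr2:49619036-49619335, plus strand, show an alpha-tubulin and a transport kinesin promoter that lost accessibility.
Tuba1c: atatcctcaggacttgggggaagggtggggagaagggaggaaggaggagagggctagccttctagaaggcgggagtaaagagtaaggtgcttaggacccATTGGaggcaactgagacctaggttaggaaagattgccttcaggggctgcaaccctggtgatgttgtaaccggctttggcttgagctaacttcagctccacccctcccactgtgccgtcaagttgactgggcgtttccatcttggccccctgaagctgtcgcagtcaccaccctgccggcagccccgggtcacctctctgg
Kif5c: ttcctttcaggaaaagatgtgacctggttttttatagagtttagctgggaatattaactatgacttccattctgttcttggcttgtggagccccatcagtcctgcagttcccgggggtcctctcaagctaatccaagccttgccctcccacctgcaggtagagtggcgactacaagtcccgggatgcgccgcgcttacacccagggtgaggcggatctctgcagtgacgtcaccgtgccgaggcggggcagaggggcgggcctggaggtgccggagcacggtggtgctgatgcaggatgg

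All 6 mitotic kinesins with an entry (Kif20a had none) held TTTGAA or TTCGAA, against 20.2% of the 17492 protein-coding genes in the promoter table, and 5 of the 6 held CCAAT, against 42.3%. Both stood in the windows of 5 of these 6 genes and of 9.24% of all genes. Among the 10 transport kinesins with an entry, 3 held CCAAT, 1 held TTTGAA or TTCGAA, and 0 held both. Of the 6 other division kinesins with an entry, 2 held CCAAT, 3 held TTTGAA or TTCGAA, and 1 held both. Over all kinesins outside the mitotic 7, both stood in 4 of the 25 with an entry, and over all members in 11 of 53. In Kif11, CCAAT began 45 bases before the start and the CHR letters 19 bases before it. In Kif22 the nearest pair began 54 and 17 bases before the start, and in Kif18b the CHR letters began 3 bases after it with CCAAT at 53 and 30 bases before. GGGCGG, the GC box, was found in 4 of the 6, against 49.2% of all genes. The E2F letters TTTGGCGC or TTTCGCGC were found in 0 of the 6 and in 1.21% of all genes, and among the 53 members with an entry they stood only in Kif15 and Kif18a. The window of Kif2c, which held TTTGAA or TTCGAA alone, had no exact match in the mm9 sequence of its main site. Windows were placed only by such a match of all their bases, so the window may still overlap that site. These letters are a description of the windows, and binding was not measured.

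**Figure D1:**
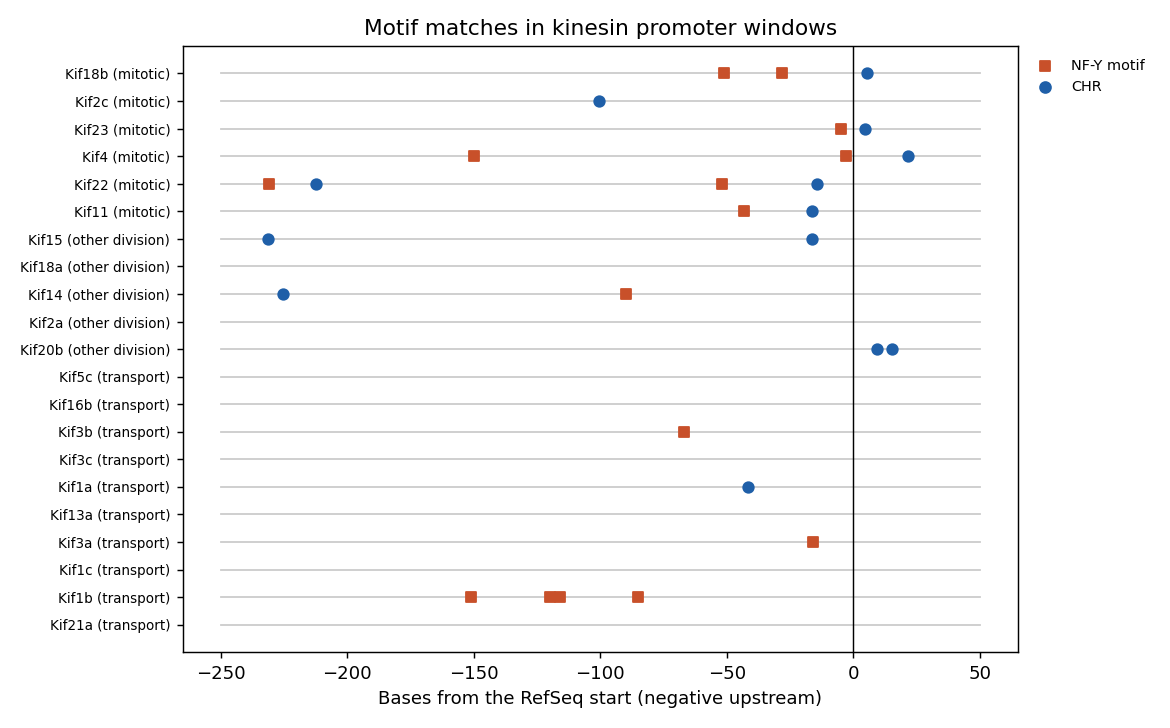
Positions of NF-Y motif (CCAAT, squares) and CHR (TTTGAA or TTCGAA, circles) letters on either strand in the RefSeq windows of mitotic, other division and transport kinesins, in bases from the start. Within each class genes are ordered by their log2 fold change, the most negative first, and all windows of a gene share a line. The 6 mitotic kinesins all carry a circle, against 1 of the 10 transport kinesins. Of the other division kinesins, Kif14, Kif15 and Kif20b carry one.

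Upon Ash2l loss, 19 of the 61 genes lost accessibility at their main site and 4 gained it, where a call needed an adjusted p under 0.05 together with a log2 fold change beyond 0.40 in either direction. Over all 15831 protein-coding genes with a promoter site, 23.0% were lost and 4.76% gained, and the members' shares were 31.1% and 6.56%. The median log2 fold change of the members was -0.29 (-0.36 to -0.26 when each +HOT library was set against each -HOT library in 4 pairs), beside -0.22 for all genes. Both +HOT libraries lay below both -HOT libraries at 47 of the 61 main sites (77.0%), against 65.5% of all genes, and above them at 4, against 9.66% of all genes. A lower site in such bulk samples may be open in fewer cells or less open in each, and these cannot be told apart.

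The count of lost genes depended on the scaling. Scaled by library totals alone, 9 members were lost and 4 gained, and the share lost was 14.8% beside 16.5% of all genes. With offsets trended on abundance, 8 members (13.1%) and 2058 of the 15831 genes were lost, and 4 members were gained. The loss of Kif18b, Kif2c, Kif16b, Tuba1c and Tuba4a and the gain of Kif12 and Stmn3 passed under every alternative run on them.

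**Figure D2:**
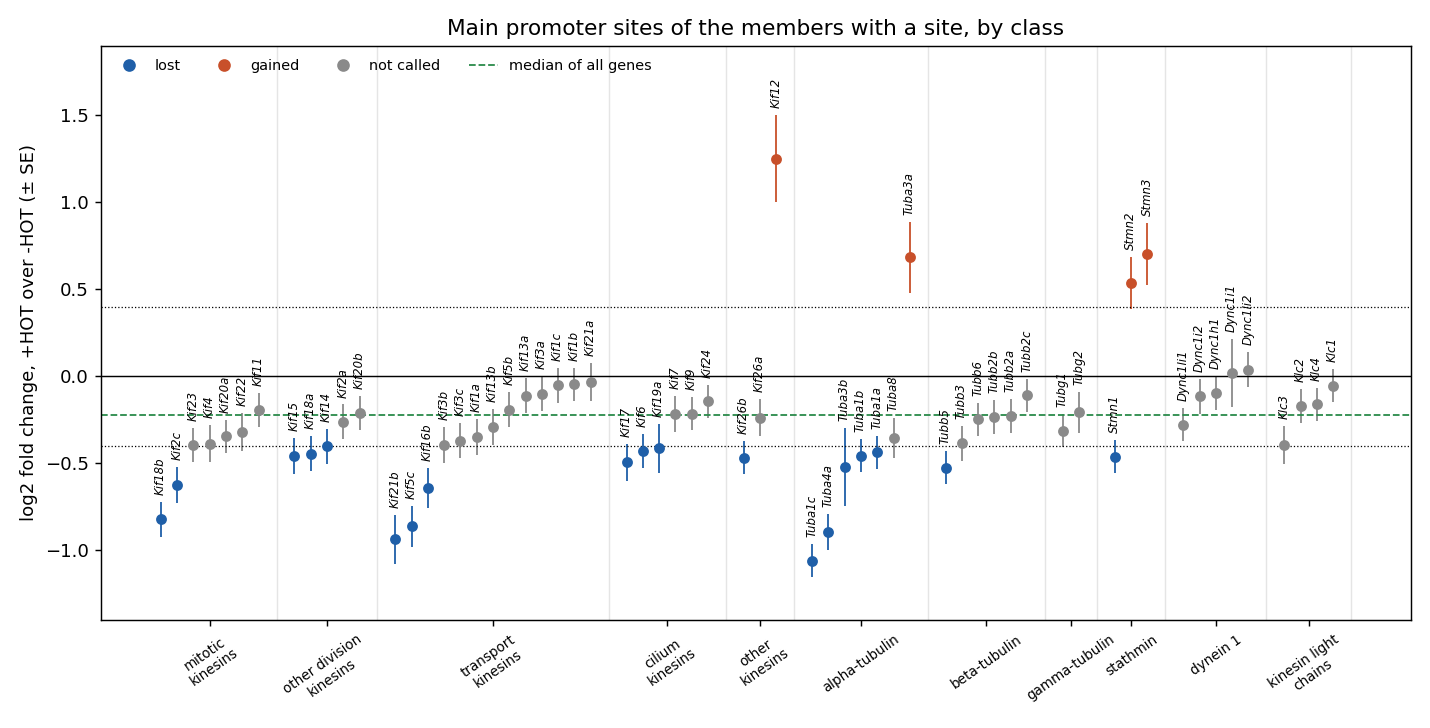
Log2 fold change (+HOT over -HOT, ± SE of edgeR's fit) of the main promoter site of each of the 61 genes, by class. Colours give the call, dotted lines the fold minimum of 0.40 and the dashed line the median of all genes (-0.22). Tuba1c, at -1.06, is the lowest and Kif12, at 1.25, the highest.

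All 7 mitotic kinesins had a site, and 2 of them, Kif18b and Kif2c, lost accessibility. Kif18b, a kinesin that shortens astral microtubules at their plus ends, had a site at its 5′ end (chr11:102785573-102787107, mm9, centred in a UTR exon) with 17.7 and 16.4 CPM in +HOT, against 30.2 and 30.2 CPM in -HOT. Both +HOT libraries lay well below both -HOT libraries, and the log2 fold change was -0.82 (SE 0.10, adjusted p = 2.30e-11 by edgeR's quasi-likelihood test), lower than in all but 3.34% of the genes. Kif2c, which takes microtubules apart at centromeres to correct faulty attachments, had 13.7 and 16.2 CPM in +HOT, against 21.9 and 24.0 CPM in -HOT (chr4:116854273-116855972), a log2 fold change of -0.63 (SE 0.11, adjusted p = 4.76e-07).

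The midzone motors passed the test of p without reaching the fold minimum. Kif23, part of the centralspindlin complex of cytokinesis, had 26.1 and 25.6 CPM in +HOT, against 36.2 and 31.6 CPM in -HOT. Its log2 fold change was -0.39 (SE 0.10, adjusted p = 0.000558), with no overlap between the groups. Kif20a, which brings the chromosomal passenger complex to the midzone, had 37.4 and 36.9 CPM in +HOT, against 48.2 and 46.2 CPM in -HOT, a log2 fold change of -0.35 (adjusted p = 0.00169). The interval of Kif20a also lies within 3000 bp of the start of Brd8. Kif23 was called lost with DESeq2 and with TMM factors of distal sites, and Kif20a with the distal factors alone. Kif23 also reached the fold minimum without +HOT replicate 1, at -0.41, and without -HOT replicate 2, at -0.49.

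Chromokinesins, which bind chromosome arms, showed similar sizes. Kif4 had 14.0 and 15.2 CPM in +HOT, against 19.8 and 18.2 CPM in -HOT, and its log2 fold change was -0.39 (adjusted p = 0.00178). The centre of that site was nearer to the TSS of Pdzd11 than to that of Kif4. The site was called lost with TMM factors of distal sites. It also reached the fold minimum without +HOT replicate 2, at -0.45, or -HOT replicate 2, at -0.45. Kif22 had 16.5 and 12.5 CPM in +HOT, against 18.6 and 17.7 CPM in -HOT, with the wider spread in +HOT and a log2 fold change of -0.32 (adjusted p = 0.0120), and was called lost without +HOT replicate 1, at -0.55. Kif11, the motor that pushes spindle poles apart, had 27.4 and 28.1 CPM in +HOT, against 33.3 and 30.1 CPM in -HOT, the smallest difference of the 7 at -0.19 (adjusted p = 0.101), and its value with abundance-trended offsets was 0.014.

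**Figure D3:**
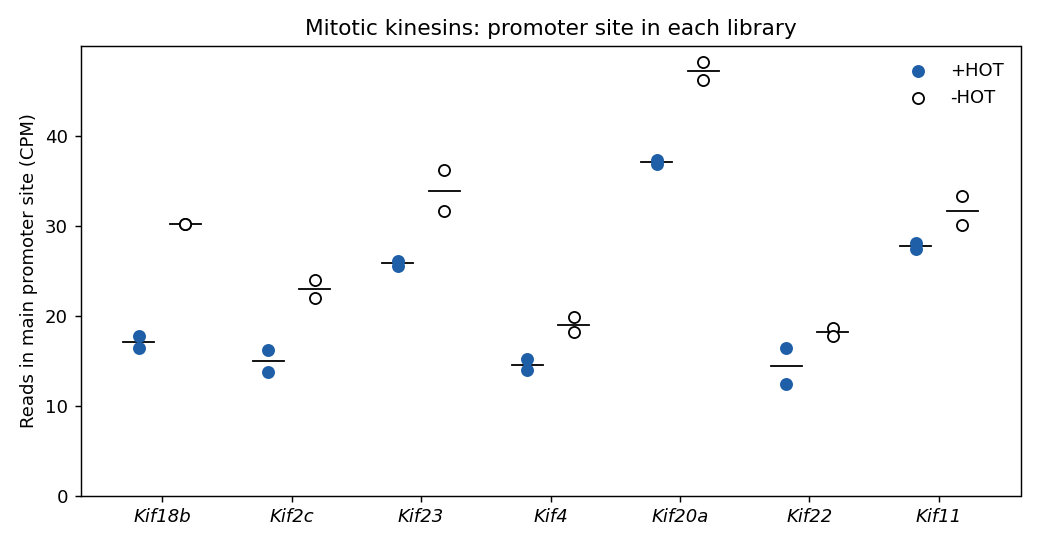
Reads in the main promoter site of each mitotic kinesin in CPM, one point per library and a line at the mean of each group's 2 libraries, with +HOT filled and -HOT open. At each of the 7 genes both +HOT points lie below both -HOT points, with the widest relative gap at Kif18b.

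In TMM-scaled CPM the 2 +HOT libraries lay below both -HOT libraries at all 7 mitotic kinesins and at 21 of the 27 other kinesins with a site (77.8%), beside 65.5% of all genes. Lost sites numbered 2 of 7 among the mitotic and 10 of 27 among the other kinesins, where 1 more, Kif12, was gained. These counts moved with single libraries: they were 4 and 11 without +HOT replicate 1, 3 and 6 without +HOT replicate 2, 2 and 9 without -HOT replicate 1, and 4 and 11 without -HOT replicate 2. With DESeq2 they were 3 and 10. They also moved with the scaling, to 5 and 13 with TMM factors of distal sites, 2 and 4 with library totals and 2 and 3 with abundance-trended offsets, so no order of the lost shares is read from them. At the adjusted p alone, 6 of 7 mitotic and 15 of 27 other kinesins were lower, beside 45.1% of all genes. The median log2 fold change was -0.39 (-0.47 to -0.31 over library pairs) for the mitotic and -0.29 (-0.37 to -0.26) for the other kinesins. The medians differed by -0.10 (-0.17 to -0.04 over pairs). No p was given to this difference, since genes are not replicates, and without -HOT replicate 1 it was -0.020. With Kif14, Kif15, Kif18a and Kif20b counted as mitotic, 5 of 11 (45.5%) were lost in that group and 7 of 23 (30.4%) among the rest, beside 23.0% of all genes. That rest still held Kif2a, another division kinesin, which was not called (-0.26). With library totals or abundance-trended offsets, Kif14, Kif15 and Kif18a were not called. In the rest, Kif6, Kif19a and Kif26b dropped out in both settings too, and Kif17 with the offsets. The main sites of the mitotic kinesins had a median GC content of 51.4% and those of the other kinesins one of 56.4%, and with the GC trend of each library removed the medians differed by -0.16.

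**Figure D4:**
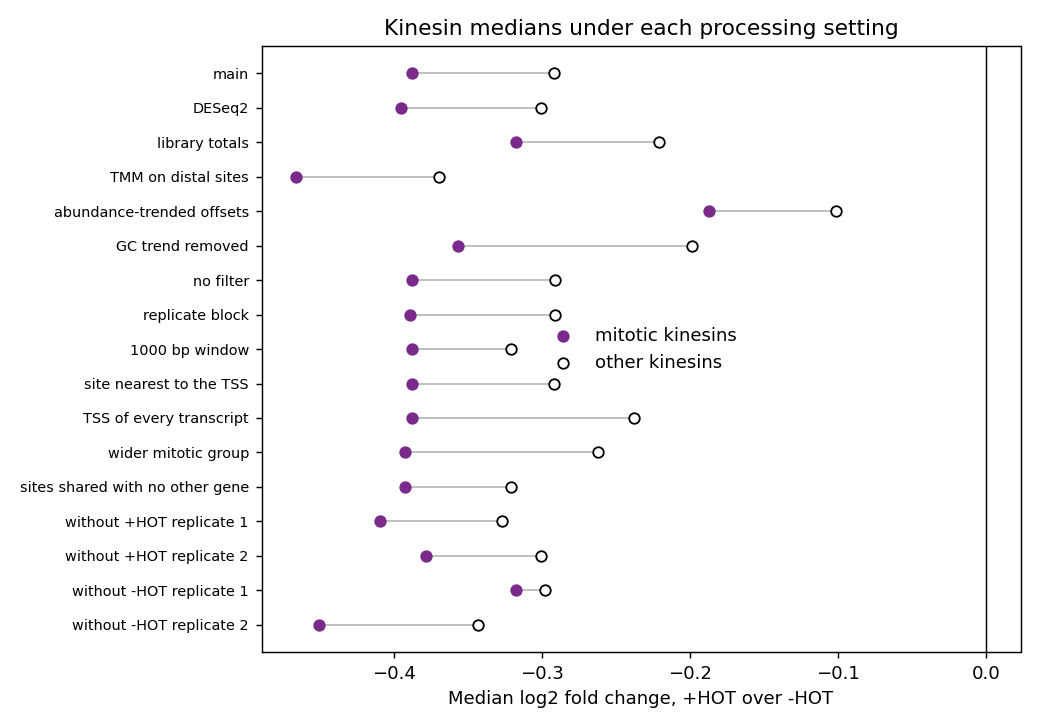
Median log2 fold change (+HOT over -HOT) of the mitotic kinesins (filled) and the other kinesins (open) under each processing setting. The mitotic median lies to the left in every setting drawn, by -0.10 in the main one and by -0.020 without -HOT replicate 1.

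Of the 5 other division kinesins with a site, 3 lost accessibility (60.0%, beside 23.0% of all genes). Kif15, which can stand in for Kif11 in holding the spindle open, had 16.5 and 15.98 CPM in +HOT, against 21.9 and 22.7 CPM in -HOT (log2 fold change -0.46). Kif18a, which damps chromosome movements at the metaphase plate, had 19.7 and 18.6 CPM in +HOT, against 26.6 and 25.4 CPM in -HOT (-0.44). Both promoters hold the E2F letters named above, and both sites are shared, with 1110059G10Rik for Kif15 and with Mettl15, whose start lies nearer, for Kif18a. Kif14, which acts in abscission, had 18.9 and 18.8 CPM in +HOT, against 24.6 and 25.3 CPM in -HOT (-0.40, adjusted p = 0.000625) at a site centred 1803 bp upstream of its start. The site nearest to the Kif14 start had -0.17 (adjusted p = 0.618), and the upstream site fell short of the fold minimum without +HOT replicate 2, at -0.3998, or -HOT replicate 2, at -0.39. Kif20b, another cytokinesis motor, had 24.6 and 27.9 CPM in +HOT, against 31.1 and 29.4 CPM in -HOT and -0.21 (adjusted p = 0.0720).

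Among the 13 transport kinesins with a site, 3 lost accessibility (23.1%, beside 23.0% of all genes) and 0 gained it (beside 4.76%). Their median log2 fold change was -0.29, beside -0.22 for all genes. Kif21b, a motor of neurons and immune cells, had 5.34 and 5.19 CPM in +HOT, against 10.9 and 9.21 CPM in -HOT (log2 fold change -0.94, SE 0.14, adjusted p = 2.24e-08). Kif5c, a conventional kinesin heavy chain abundant in neurons, had 9.76 and 8.53 CPM in +HOT, against 17.1 and 16.3 CPM in -HOT (-0.86, SE 0.12, adjusted p = 5.73e-10). Kif16b, which moves early endosomes, had 9.83 and 10.4 CPM in +HOT, against 16.6 and 14.9 CPM in -HOT (-0.64, adjusted p = 1.80e-06). In these 3 the groups did not overlap, and the Kif21b and Kif5c values hold for starts of protein-coding transcripts. With the starts of all their transcripts, the strongest sites had 0.062 (adjusted p = 0.700) for Kif21b and -0.09 for Kif5c.

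The remaining transport motors ran down to -0.397 at Kif3b (adjusted p = 0.00105), just short of the fold minimum, and up to -0.03 at Kif21a. Roles other than the mitotic one were assigned here, and Kif3b, a subunit of the kinesin-2 motor of cilia, was counted with transport. Kif13a, an endosome motor and the one with the highest level per kb among the transport kinesins not called, had 24.9 and 21.4 CPM in +HOT, against 25.5 and 24.7 CPM in -HOT, and its groups overlapped (-0.11, adjusted p = 0.376). That site lay 705 bp upstream, and the site nearest to the Kif13a start, 508 bp downstream in an intron, was lost, with 8.67 and 8.49 CPM in +HOT against 12.1 and 11.6 CPM in -HOT (-0.47, adjusted p = 0.00115). The broadly used mitochondrial and vesicle motor Kif1b had 53.8 and 47.3 CPM in +HOT, against 52.8 and 51.8 CPM in -HOT and -0.05 (adjusted p = 0.722). Kif5b, the ubiquitous heavy chain, had -0.19 (adjusted p = 0.110).

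Of the 6 ciliary and centriolar kinesins with a site, 3 were lost (50.0%, beside 23.0% of all genes). Kif17, a motor of cilia and dendrites, had 15.2 and 12.9 CPM in +HOT, against 19.7 and 20.0 CPM in -HOT (log2 fold change -0.49). Kif6, linked to ciliary motility, had 22.5 and 20.3 CPM in +HOT, against 29.4 and 28.3 CPM in -HOT (-0.43). Kif19a, which limits ciliary length, had 6.14 and 6.91 CPM in +HOT, against 8.94 and 8.37 CPM in -HOT (-0.42, adjusted p = 0.0106). Each of these lay 81 to 113 bp upstream of its start, and the Kif19a call was lost with DESeq2, without +HOT replicate 1, at -0.33 (adjusted p = 0.119), and without -HOT replicate 1, at -0.37 (adjusted p = 0.106). Without +HOT replicate 2, Kif17 had -0.39 and Kif6 -0.36, and neither was called. Kif24, which restrains cilium assembly at the mother centriole and shares its site with Nudt2, had 41.5 and 36.7 CPM in +HOT, against 44.5 and 42.0 CPM in -HOT and -0.14 (adjusted p = 0.218).

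Outside these roles, Kif26b, an atypical kinesin of kidney development, had 45.7 and 40.6 CPM in +HOT, against 60.9 and 58.8 CPM in -HOT and was lost (-0.47, adjusted p = 2.09e-05). Without +HOT replicate 2 its value of -0.39 missed the fold minimum. Its relative Kif26a had 17.7 and 16.3 CPM in +HOT, against 21.3 and 18.7 CPM in -HOT and -0.24 (adjusted p = 0.0554). Kif12, a motor of kidney and liver epithelium, was the only kinesin whose main site was gained. It had 2.88 and 3.97 CPM in +HOT, against 1.56 and 1.27 CPM in -HOT in an intronic site 1760 bp downstream of its start, a log2 fold change of 1.25 (SE 0.25, adjusted p = 1.73e-05) from a low level. Promoters of 5 of 6 epithelial markers had a site and all 5 were lost, beside 23.0% of all genes. Their sums were 23.4 and 24.0 CPM in +HOT against 37.6 and 36.6 CPM in -HOT.

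Alpha-tubulins had 5 lost sites and 1 gained site of 7 (71.4% and 14.3%, beside 23.0% and 4.76% of all genes). Their median log2 fold change was -0.46. Tuba1c held the lowest value of all members, with 26.3 and 25.6 CPM in +HOT, against 56.4 and 51.9 CPM in -HOT (chr15:98859676-98861312, mm9, UTR exon), a log2 fold change of -1.06 (SE 0.10, adjusted p = 1.22e-17). That change was lower than in all but 0.903% of the genes. Tuba4a, an alpha-tubulin found in many tissues, had 14.8 and 12.9 CPM in +HOT, against 26.3 and 25.5 CPM in -HOT (chr1:75214841-75216472, intron), -0.90 (SE 0.10, adjusted p = 2.60e-12). The groups stood apart by far more than their spread in both genes.

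Tuba1b, the main alpha-tubulin of most dividing cells, had 40.7 and 37.8 CPM in +HOT, against 57.2 and 50.6 CPM in -HOT (log2 fold change -0.46). Its neighbour on chromosome 15, Tuba1a, the chief alpha-tubulin of the developing brain, had 36.2 and 35.6 CPM in +HOT, against 50.0 and 47.3 CPM in -HOT (-0.44). These 2 lost less than Tuba1c, which lies on the same chromosome, and neither call held without -HOT replicate 1, at -0.37 for Tuba1b and -0.399 for Tuba1a. Tuba8 was not called, with 9.62 and 12.1 CPM in +HOT, against 12.9 and 14.8 CPM in -HOT (-0.36, adjusted p = 0.0100). It was called lost with TMM factors of distal sites, and reached the fold minimum without +HOT replicate 2, at -0.52, or -HOT replicate 1, at -0.45.

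The testis alpha-tubulins Tuba3a and Tuba3b, which encode nearly the same protein, had opposite calls at low levels. Tuba3b had 2.14 and 2.53 CPM in +HOT, against 3.17 and 3.51 CPM in -HOT in an intronic site (log2 fold change -0.52, adjusted p = 0.0499), and this call was lost with DESeq2 and when any 1 of the 4 libraries was left out, with values of -0.398 (adjusted p = 0.258) and -0.64 (adjusted p = 0.0524) without +HOT replicate 1 or 2, and -0.60 (adjusted p = 0.0959) and -0.45 (adjusted p = 0.214) without -HOT replicate 1 or 2. Tuba3a had 4.21 and 4.24 CPM in +HOT, against 2.58 and 2.68 CPM in -HOT at a site 987 bp upstream (0.68, adjusted p = 0.00411), and DESeq2 gave it an adjusted p of 0.0561. Neither site lies in coding sequence, and whether reads of the near copies were placed on the right gene was not tested.

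Of the 6 beta-tubulins with a site, 1 was lost (16.7%, beside 23.0% of all genes) and the median was -0.24. Tubb5, the major beta-tubulin of proliferating cells, had 42.9 and 39.9 CPM in +HOT, against 59.7 and 59.5 CPM in -HOT (-0.53, SE 0.09, adjusted p = 2.04e-06). Tubb3, the neuronal beta-tubulin, fell just short of the fold minimum at -0.39 (adjusted p = 0.000852). The beta-tubulin with the highest level per kb, Tubb2c, had 54.8 and 55.4 CPM in +HOT, against 59.8 and 59.1 CPM in -HOT (-0.11, adjusted p = 0.346). Neither gamma-tubulin, the nucleating form at centrosomes, was called. Tubg1 had 40.5 and 39.96 CPM in +HOT, against 51.3 and 48.7 CPM in -HOT (-0.31, adjusted p = 0.00432) in a site nearer to the start of Fam134c, and Tubg2 had -0.21.

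The 3 stathmins with a site divided. Stmn1, the stathmin of dividing cells, had 30.5 and 29.6 CPM in +HOT, against 45.0 and 37.8 CPM in -HOT, with the wider spread in -HOT, and was lost (-0.46, adjusted p = 4.46e-05). Stmn2, a neuronal stathmin of growing axons, had 6.71 and 8.62 CPM in +HOT, against 5.72 and 4.72 CPM in -HOT at an intronic site 1327 bp downstream of its start and was gained (0.54, adjusted p = 0.00231). Stmn3, its close neuronal relative, had 5.06 and 6.37 CPM in +HOT, against 3.72 and 3.21 CPM in -HOT and was gained too (0.70, adjusted p = 0.000731). Both gained sites stood at low levels. The Stmn2 call was lost with DESeq2, without +HOT replicate 2, at 0.35 (adjusted p = 0.117), and without -HOT replicate 2, at 0.41 (adjusted p = 0.0733), and the Stmn1 call without -HOT replicate 1, at -0.33. Sites were found for 8 of the 9 neuronal markers (2 lost, 1 gained, beside 23.0% and 4.76% of all genes). Their summed levels were 57.5 and 56.5 CPM in +HOT against 67.6 and 67.0 CPM in -HOT. The part of neuronal cells in the stathmin values was not tested.

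No subunit of cytoplasmic dynein 1 and no kinesin light chain was called, of 5 and 4 with a site (23.0% of all genes were lost and 4.76% gained). Log2 fold changes ran between -0.28 at Dync1li1 and 0.04 at Dync1li2, the light intermediate chains, with the heavy chain Dync1h1 at -0.10. Dync1li1 had 36.1 and 34.9 CPM in +HOT, against 44.8 and 41.3 CPM in -HOT (adjusted p = 0.0128), and 3 of the 5 subunits overlapped between the groups. Among the light chains, Klc4 had 30.8 and 28.7 CPM in +HOT, against 34 and 32.6 CPM in -HOT (-0.16, adjusted p = 0.168) in a site nearer to Mrpl2. Values of the light chains ran between -0.397 at Klc3 (adjusted p = 0.00197), just short of the fold minimum, and -0.05 at Klc1.

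Of the 61 genes, 17 had 2 or 3 sites, and among their 20 further sites 5 were lost, 1 was gained and 14 were not called. Of all promoter sites within 1000 bp of a start, 25.2% were lost and 3.57% gained. Of those 1000 to 3000 bp away, 19.4% were lost and 16.4% gained. Over all 119603 intervals tested, which include those far from any start, 14.2% were lost and 21.3% gained. The member site with the lowest log2 fold change, -1.29 (SE 0.20), lay 2730 bp upstream of Kif18a. There +HOT held 2.18 and 2.30 CPM against 6.44 and 4.45 CPM in -HOT. At Kif2a, a depolymerase of spindle poles, the main site had -0.26 (adjusted p = 0.0256) and an intronic site 2383 bp downstream had -0.81 (SE 0.16). At Kif1a, a motor of synaptic vesicle precursors, the main site had -0.35 while an intronic site 1420 bp downstream of a start was gained, with 4.67 and 3.66 CPM in +HOT against 1.89 and 2.38 CPM in -HOT (0.98, SE 0.22). Over all 81 member sites, the 60 within 1000 bp of a start had a median of -0.30 and the 21 farther out one of -0.04, beside -0.24 and -0.06 for all promoter sites at these distances.

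**Figure D5:**
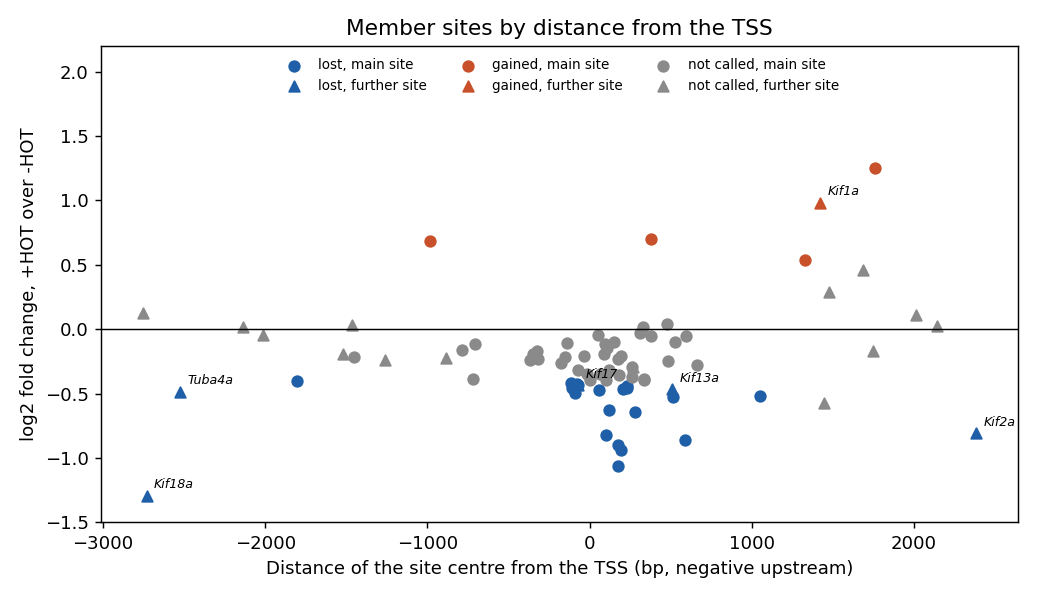
Log2 fold change (+HOT over -HOT) of the 81 member sites against the distance of the site centre from the TSS in bp, negative upstream. Circles are main sites and triangles further sites, coloured by call, and the further sites that were called are named. Of the 5 gained sites, 3 lie more than 1000 bp from the start (14.3% of the member sites there, beside 16.4% of all promoter sites at that distance). Within 1000 bp the gained shares were 3.33% of member sites and 3.57% of all promoter sites.

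Across the 61 main sites, Spearman's rho of the log2 fold change was 0.00 with the mean log-CPM, 0.08 with the GC share and -0.05 with the interval length, over sites that share the same 4 libraries. Over the 34 kinesins alone it was 0.31 with the mean log-CPM, 0.04 with the GC share and 0.22 with the interval length. Per kb, the members with the highest levels in -HOT were Tubb2c at 34.02 CPM per kb in +HOT and 36.7 in -HOT, and Tuba1c at 15.9 in +HOT and 33.1 in -HOT. Members whose window held both CCAAT and the CHR letters had a median log2 fold change of -0.39 (4 of 10 lost), and those without had -0.26 (12 of 39 lost). These counts did not require the window to lie in the main site. Among the 4 lost, the windows of Kif14 and Tuba3b had no exact match in the main site, nor had that of Kif2c among the 12. Over all genes the corresponding medians were -0.25 (26.1% of 979 lost) and -0.22 (22.1% of 11004 lost).

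The partners of these genes were counted from lists by function, against the 23.0% of all genes that were lost. Of 30 spindle and checkpoint genes outside the rule, such as Aurkb, Plk1 and the kinesin Cenpe, all had a site, 13 lost accessibility, 0 gained it and the median was -0.32. The gamma-tubulin ring complex and its adaptors had 2 lost of 8 (median -0.33), and enzymes that sever or modify microtubules 5 lost of 14 (-0.29). Tubulin-folding genes had 2 lost of 14 (-0.24), dynactin and dynein regulators 3 of 17 (-0.18) and microtubule-associated and plus-end proteins 2 of 18 (-0.17). Kinesin and tubulin genes with other symbols, such as Kifc3 and Tubd1, had 1 lost of 5 (-0.16). None of these lists held a gained site, beside 4.76% of all genes that were gained.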

How the data were processed

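ATAC-seq was performed on 2 technical replicate libraries per condition. Per the paper's methods, the authors trimmed reads with Trim Galore, aligned them to mm9 with BWA, removed duplicates, blacklisted regions and unpaired reads with SAMtools and Picard, called peaks with MACS2 and used DESeq2. No source used here gave the tools' versions or a shift for transposase binding. The deposited raw read counts per interval, in 2 parts joined here, were the only values used. The 4 columns of scaled per-sample values, the authors' own fold changes and p-values, their annotated lists and footprint tables were not used. One interval set served all libraries, so wide intervals hold more reads. Levels were ranked between genes per kb, but the correlations used mean log-CPM not divided by length, and low levels were named from CPM.

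Counts of all 119603 intervals passing filterByExpr, of 119609, were fitted with edgeR 4.0.16 in R 4.3.3 (TMM factors 0.969 to 1.04, quasi-likelihood test, Benjamini-Hochberg adjustment over all). Calls used the cut-offs of the study, 0.05 for the adjusted p and 0.40 for the size of the log2 fold change. The code was tested on simulated data. TSS came from protein-coding transcripts of GENCODE vM1 on the same build, and main sites were those with the highest mean log-CPM. Alternatives were DESeq2 1.42.0, 3 other scalings, removal of the GC trend, other filters, windows and start sets, a replicate block and leaving out each library. Members and lists were chosen with earlier results of these data known. Values in every library were given for the 7 mitotic kinesins, each called member, and in each class the uncalled member with the highest CPM per kb, while values of Kif1b and of sites beyond the main ones were added after they were seen. Older gene symbols were matched through RefSeq synonyms. Promoter windows of 300 bases came from RefSeq (GRCm38.p6), where 53 of the 68 members had an entry.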

Additional observations from a re-analysis of the deposited data

How the results depend on the processing

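Of the 61 members, 19 were lost and 4 gained in the reported fit. The count lost was 9 with library totals (14.8%, beside 16.5% of all genes). It was 8 with abundance-trended offsets (13.1%, beside 2058 of the 15831 genes). With no fold minimum it was 36 (59.0%, beside 45.1% of all genes). The count gained was 2 with DESeq2 (beside 2.98% of all genes) and 2 in a 1000 bp window. Left-out libraries gave 15 to 23 lost and 3 to 4 gained, with the lone library assumed to vary like those of the other group. The median of the other kinesins was -0.22 with library totals, -0.37 with TMM factors of distal sites, -0.10 with abundance-trended offsets, -0.20 after removal of the GC trend, -0.24 with the starts of every transcript, and -0.34 to -0.30 when 1 library was left out. The mitotic median was -0.19 with abundance-trended offsets, and the difference of the medians -0.16 with the GC trend removed and -0.11 to -0.020 when 1 library was left out. Abundance-trended offsets turned Kif11 (0.014), Kif13a (0.092), Kif24 (0.057), Klc4 (0.042) and Tubb2c (0.085), and removal of the GC trend turned Kif13a (0.081), Kif26a (0.0024) and Tubb2c (0.064), none of them called. The starts of every transcript turned Kif21b (0.062). The cause was not tested. The median of all genes was -0.22, -0.15 with library totals, -0.30 with distal factors, -0.05 with abundance-trended offsets and -0.13 after removal of the GC trend. When 1 library was left out, the median of all genes was -0.27 to -0.18 and that of the members -0.34 to -0.28.

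With the replicate number as a block, 19 members were lost and 4 gained, and no call of a named gene changed. Same-numbered libraries shared only a number (correlation of their deviations 0.0409). Restricting to main sites that no other gene shares, an alternative chosen after seeing the data, gave 17 lost and 4 gained. Depth limited the low sites of Kif12, Stmn2, Stmn3, Tuba3a and Tuba3b, and 1 cell line limits all of them.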
